A study of Mus musculus with 18 samples.

Results

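The genes described here are 53 transcription factors of forebrain patterning and hippocampal identity, taken as a list of symbols. They were set in 4 groups by their textbook roles: ZIC factors (4 genes), dentate factors (5), CA field factors (6) and pan-pallial factors (38), the last with subgroups by family or role. The groups are not exclusive: Neurod1, Neurog2, Eomes and Emx2 of the dentate group also act more widely in the pallium. Of the 53, 50 had a row in the deposited table of 12012 genes. Zic4, Foxp2 and Meis1 had no row, and the lowest mean of the table was 40.7 normalized counts, so nothing is said of their levels.

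The series sequenced poly-A RNA from primary cultures of mouse hippocampus, WT or KO for Fibcd1, with or without stimulation by chondroitin sulphate proteoglycans (CSPGs), sulphated sugar-bearing proteins of the brain's extracellular matrix. Of 18 labelled libraries, the 4 WT_CSPG and the 4 KO_CSPG libraries with the replicate letters A to D were analysed, and 10 were not analysed here (5 WT, 4 KO and WT_CSPG replicate E). WT_CSPG cultures carried wild-type Fibcd1 and KO_CSPG cultures were fibcd1 -/- for the Fibcd1tm1Lex allele, a deletion in all cells of the animal and not in neurons alone. Both groups shared the C57BL/6J background, embryonic hippocampus just before birth as the source, and growth on a CSPG coating for a few days in vitro. A replicate was 1 preparation of cells, and neither litter nor embryo sex is stated by library. The untreated cultures were not analysed, so nothing here compares a factor with and without CSPGs.

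The pallium is the dorsal forebrain, and its medial edge becomes the hippocampus. Lhx2 and Emx2 set up the pallial field early, and Lhx2 separates it from the hem that borders it. Newborn glutamatergic neurons pass through a cascade of bHLH factors (Neurog2, Neurod1, Neurod2, Neurod6) and the T-box factors Eomes and Tbr1. Prox1 marks and maintains dentate granule cells, whereas Zbtb20, Bcl11b and Neurod6 are used in CA pyramidal neurons. ZIC zinc-finger factors are used along the dorsal midline, in the septum, in the meninges and in Cajal-Retzius cells.

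The promoters of 4 members are shown because they belong to the members with the largest called fall and rise, or to a pair of closely related bHLH factors that both fell. Sequences are from RefSeq on GRCm38.p6, run from 250 bases before to 50 bases after the start of the gene, and are on the minus strand in each case. Capitals mark the E-box, CANNTG (the same on both strands), which is the motif bound by bHLH factors.
Zic1 (chr9:91365719-91366018, minus): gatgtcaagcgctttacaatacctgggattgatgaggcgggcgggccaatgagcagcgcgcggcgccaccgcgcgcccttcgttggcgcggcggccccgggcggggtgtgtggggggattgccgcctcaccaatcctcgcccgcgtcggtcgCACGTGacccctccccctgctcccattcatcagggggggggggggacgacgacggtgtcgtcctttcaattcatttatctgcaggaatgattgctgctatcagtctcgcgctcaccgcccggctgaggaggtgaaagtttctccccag
Satb1 (chr17:51833241-51833540, minus): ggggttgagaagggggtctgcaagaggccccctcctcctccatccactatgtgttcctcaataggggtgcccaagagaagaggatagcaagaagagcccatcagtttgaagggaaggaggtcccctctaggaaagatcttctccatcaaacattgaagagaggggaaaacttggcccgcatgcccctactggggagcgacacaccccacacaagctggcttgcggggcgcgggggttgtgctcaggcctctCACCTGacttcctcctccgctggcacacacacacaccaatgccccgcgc
Neurod2 (chr11:98329596-98329895, minus): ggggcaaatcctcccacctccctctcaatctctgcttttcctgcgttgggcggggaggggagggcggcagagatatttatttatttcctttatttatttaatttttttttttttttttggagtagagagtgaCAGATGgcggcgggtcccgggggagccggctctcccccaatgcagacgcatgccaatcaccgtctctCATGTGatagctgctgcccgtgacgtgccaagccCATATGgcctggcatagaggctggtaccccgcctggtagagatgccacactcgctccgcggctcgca
Neurod6 (chr6:55681214-55681513, minus): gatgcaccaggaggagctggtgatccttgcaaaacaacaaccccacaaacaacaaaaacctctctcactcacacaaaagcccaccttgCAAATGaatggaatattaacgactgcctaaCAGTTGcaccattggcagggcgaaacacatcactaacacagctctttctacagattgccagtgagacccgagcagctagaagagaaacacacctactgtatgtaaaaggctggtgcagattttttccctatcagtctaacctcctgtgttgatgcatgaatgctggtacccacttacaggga
GC content was 65.3% for Zic1, 59.0% for Satb1, 55.3% for Neurod2 and 46.3% for Neurod6. Neurod2 held 3 E-boxes, Neurod6 held 2, and Zic1 and Satb1 held 1 each. An E-box stood in 72.3% of the 32851 mouse promoters of this length, in 24 of the 43 members with a promoter in the table and in 6 of the 8 such members that were called below. Matches are letters only and show no binding.

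The targeted gene was checked first. Fibcd1 (chr2:31813290-31846005, minus strand), a receptor for acetylated and sulphated sugars, had 54.3, 70.4, 60.1 and 182 normalized counts in WT_CSPG A to D and 0.970, 0.932, 7.16 and 4.74 in KO_CSPG A to D. All 4 KO_CSPG libraries lay below all 4 WT_CSPG libraries, as their labels say (log2 fold change -4.48, SE 0.58, adjusted p = 0.00599), although at 1 read in 2 KO_CSPG libraries the fitted value depends on the pseudocount. A normalized count is a gene's read number after division by the library's size factor. Libraries held 10099564 to 11174615 reads in WT_CSPG and 10541445 to 11647202 in KO_CSPG over the genes of the table. The label gives the cells as neurons. All 10 genes of the neuron list had a row, and so did 11 of 12 astrocyte and radial glia genes, 6 of 8 microglial genes and 9 of 10 oligodendrocyte lineage genes, so RNA of these other cells was present. In such bulk samples, fewer cells of a type and less RNA per cell cannot be told apart. For cultures without CSPGs, the paper found glial genes among its top KO against WT differences. It proposes that numbers of glia may differ between genotypes, and it went on to compare only within a genotype.

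Of the 50 members, 9 were called at an adjusted p under 0.05 (limma on log2(value + 1), Benjamini-Hochberg over all 12012 genes), against 2.88% of all genes. Satb1, Bhlhe22, Prox1 and Mef2c rose in KO_CSPG (4 of 50, against 1.09% of all genes), and Zic1, Fezf2, Neurod2, Neurod6 and Lhx2 fell (5 of 50, against 1.79%). Members were more highly expressed than the table at large, with a median level of 1201 normalized counts against 421 for all genes, and a higher level makes a small change easier to call. The changes were small. Apart from Zic1, the called members moved by at most 0.42 on the log2 scale. The median log2 fold change of the 50 members was -0.036, and that of all genes was 0.00016.

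The libraries of both groups did not overlap for 10 members, the 9 called and Nfib, against 9.22% of all genes. In 4 of these KO_CSPG was higher, against 4.05% of all genes, and in 6 it was lower, against 5.17%. By group, 1 of 3 ZIC, 1 of 5 dentate, 1 of 6 CA field and 6 of 36 pan-pallial members were called. The calls rest on the spread assumed and on what the genotypes share. With a prior variance that does not follow expression level, 2 members were called (Zic1 and Satb1) and 80 genes in all. The 4 Y-linked genes, which only male embryos use, all fell, with summed levels of 1557 to 1935 normalized counts in WT_CSPG and 878 to 1092 in KO_CSPG. Genotype explained 91.2% of the variance of that sum, and with it as a covariate 0 members and 2 genes were called by limma (7 members and 825 genes at an unadjusted p under 0.05). The share of male embryos and the genotype cannot be told apart in these libraries.

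**Figure D1:**
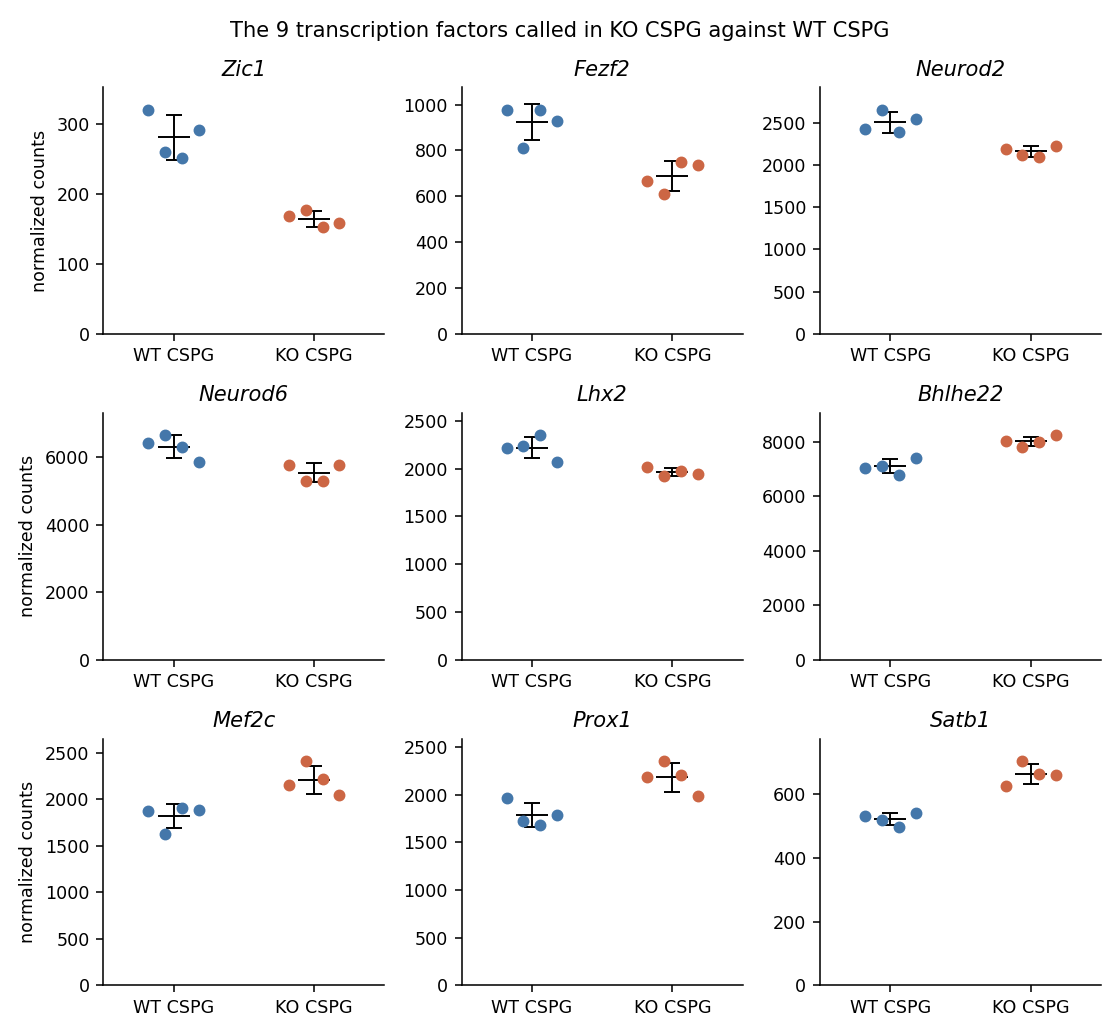
Normalized counts of the 9 called transcription factors (vertical axes, each from 0) in the 4 WT CSPG and the 4 KO CSPG libraries. Points are libraries, long bars are means and short bars are 1 SD; no panel has overlapping groups, and Zic1 shows the widest gap for its level.

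The ZIC group held the largest change among the members. Zic1 (chr9:91358058-91365810, minus strand) had 319.7, 259.9, 250.2 and 290.4 normalized counts in WT_CSPG A to D and 168, 177, 152 and 158 in KO_CSPG A to D. Every KO_CSPG library lay well below the lowest WT_CSPG library, and the geometric mean, taken from the log2 fold change, fell by 41.2% (log2 fold change -0.77, SE 0.083, adjusted p = 1.88e-06). The log2 fold change lay between -0.82 and -0.70 over all 17 alternatives. Zic1 lost its call only with the Y-linked covariate, where its value was -0.70 and its adjusted p from limma was 0.632.

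Zic2 and Zic5 are neighbours on chromosome 14, with starts 9758 bases apart on opposite strands. Zic2, which acts early at the dorsal midline, had 165, 182, 173 and 383 normalized counts in WT_CSPG A to D and 208, 204, 167 and 179 in KO_CSPG A to D. Replicate D of WT_CSPG stood far above the other 7 libraries, which overlapped. The log2 fold change was -0.16 (95% interval -0.86 to 0.54, adjusted p = 0.858) with replicate D and 0.12 without it, so neither a sign nor a change was established. Zic5 had 80.5, 80.1, 92.1 and 120.3 normalized counts in WT_CSPG and 81.4, 77.4, 78.7 and 62.6 in KO_CSPG. Its lowest value was in KO_CSPG D and its highest in WT_CSPG D, with the groups overlapping (log2 fold change -0.30, SE 0.13, adjusted p = 0.268). Zic4 lies next to Zic1, with starts 3397 bases apart on opposite strands, and had no row.

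WT_CSPG D also stood apart in genes of other tissue. Without it all 9 members were still called, and Nfib and Nr2f2 were called as well. Ttr, the transthyretin gene that choroid plexus uses at very high levels, had 331, 953, 11.6 and 3529 normalized counts in WT_CSPG A to D and 243, 115, 5.11 and 21.8 in KO_CSPG A to D. Summed over the 3 of 10 choroid plexus genes with a row, WT_CSPG had 162 to 3999 and KO_CSPG 209 to 527, and 0 of the 3 were called by limma or had an unadjusted p under 0.05. The level of Zic1 in WT_CSPG D lay within the range of WT_CSPG A to C. Meningeal genes, 3 of 12 with a row, summed to 67.9 to 467 in WT_CSPG and 101 to 775 in KO_CSPG, with the lowest level in replicate C of both groups and 0 called by limma or at an unadjusted p under 0.05. Col1a1 (0.51) and Col1a2 (0.31) were measured with wide errors, and Dcn, Lum and Foxc1 had no row. Cajal-Retzius genes, 6 of 10 with a row, had 0 calls by limma, 3 genes at an unadjusted p under 0.05 and positive log2 fold changes in 5, Reln with 0.20 (adjusted p = 0.415) and Trp73 with 0.98 (adjusted p = 0.102). Of 10 thalamic and diencephalic genes 2 had a row, Slc17a6 (-0.14) and Tcf7l2 (-0.054), with 0 called by limma and 1 at an unadjusted p under 0.05. The part of these cells in the Zic1 result was not tested.

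**Figure D2:**
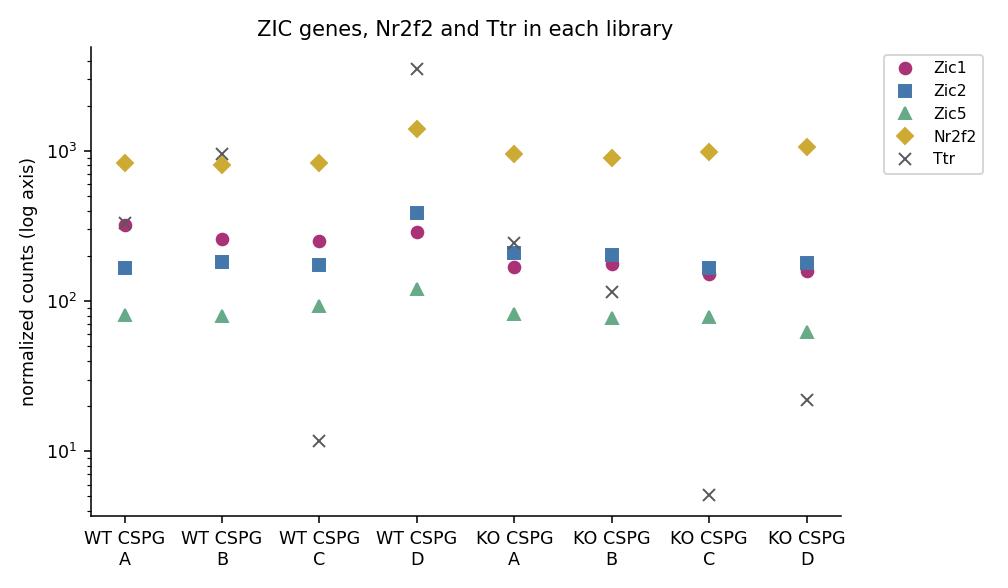
Normalized counts (vertical log axis) of Zic1, Zic2, Zic5, Nr2f2 and the choroid plexus gene Ttr in each of the 8 libraries (horizontal axis). Zic1 lies lower in all 4 KO CSPG libraries, whereas Zic2, Nr2f2 and Ttr have their highest points in WT CSPG D.

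Among dentate factors Prox1 alone was called. Prox1 (chr1:190118035-190170714, minus strand) had 1969.6, 1728, 1685 and 1786 normalized counts in WT_CSPG A to D and 2184, 2353, 2210.2 and 1989 in KO_CSPG A to D. The groups were apart by a narrow margin, since WT_CSPG A and KO_CSPG D nearly met, and the geometric mean was 21.8% higher in KO_CSPG (log2 fold change 0.29, SE 0.053, adjusted p = 0.00918). Prox1 is also used by some interneurons and by oligodendrocyte precursors. Of 16 subpallial and interneuron genes, 13 had a row, of which 1 was called higher and 12 were not called, with a median of -0.020 over the 12. The defining homeobox genes Dlx1 (log2 fold change -0.024) and Dlx2 (-0.13) were not called. Of 9 oligodendrocyte lineage genes, Olig1 (log2 fold change 0.59, SE 0.057, adjusted p = 2.33e-07) and Olig2 (log2 fold change 0.79, SE 0.084, adjusted p = 1.20e-06) rose. The summed level of that list, with Olig1 and Olig2 included, was 1167 to 1595 in WT_CSPG and 1815 to 2013 in KO_CSPG, ranges that did not overlap. The 7 oligodendrocyte lineage genes without a call summed to 597 to 977 in WT_CSPG and 902 to 1089 in KO_CSPG, ranges that overlapped in part. The part of these cells in the Prox1 result was not tested.

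The other dentate factors gave intervals that spanned 0. Neurod1, which drives granule cell differentiation, had 2845 to 3632 normalized counts in WT_CSPG and 3075 to 3282 in KO_CSPG, a difference of -0.011 (95% interval -0.15 to 0.13). Eomes, a factor of intermediate progenitors, had 195, 205, 198 and 217 normalized counts in WT_CSPG A to D and 211, 192, 198 and 225 in KO_CSPG A to D. Its groups overlapped fully (log2 fold change 0.019, SE 0.077, adjusted p = 0.939). Emx2, which is needed for growth of the dentate gyrus, had 711, 604, 667 and 587 normalized counts in WT_CSPG and 676, 631, 660.4 and 654 in KO_CSPG. All 4 KO_CSPG libraries lay inside the range of WT_CSPG (log2 fold change 0.033, SE 0.055, adjusted p = 0.836). Neurog2, the proneural factor at the head of the cascade, had a log2 fold change of -0.092 (95% interval -0.29 to 0.10).

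Among CA field factors, Neurod6 fell and 5 others were not called. Neurod6 (chr6:55677822-55681263, minus strand), a bHLH factor of maturing pyramidal neurons, had 6432, 6649, 6320.4 and 5865 normalized counts in WT_CSPG A to D and 5782, 5297, 5287 and 5775 in KO_CSPG A to D. The lowest WT_CSPG library, D, was just above the highest KO_CSPG library, A, and the geometric mean fell by 12.4% (log2 fold change -0.19, SE 0.039, adjusted p = 0.0118). Zbtb20, which separates CA1 identity from adjoining fields, had 7376, 8106, 6652 and 6839 normalized counts in WT_CSPG and 7163, 8073, 6765 and 6254 in KO_CSPG. Replicate B was the highest library of each group, and the difference was within the spread (log2 fold change -0.038, SE 0.098, adjusted p = 0.904). Bcl11b, a zinc-finger factor used in CA and dentate neurons, had 1949.8, 2001, 2104 and 2397 normalized counts in WT_CSPG and 1902, 2125, 1798 and 1974 in KO_CSPG. The groups overlapped and the difference missed the threshold (log2 fold change -0.11, SE 0.070, adjusted p = 0.491).

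Nr2f2, a nuclear receptor of ventral hippocampus and of interneurons, had 829.7, 808, 828 and 1395 normalized counts in WT_CSPG A to D and 957, 896, 983 and 1059.9 in KO_CSPG A to D. As with Zic2, WT_CSPG D was far above the other 3, which all lay below the KO_CSPG libraries. The log2 fold change was 0.052 (adjusted p = 0.935), and without WT_CSPG D it was 0.24 with an adjusted p of 0.00388 from limma, so that the result turned on 1 library. Pou3f1, a POU factor of CA1 and of upper layers, varied widely among the WT_CSPG libraries, at 132 to 258 in WT_CSPG and 204 to 252 in KO_CSPG (log2 fold change 0.30, SE 0.22, adjusted p = 0.58). Foxp1, a forkhead factor of CA1 and cortical neurons, had a log2 fold change of -0.12 (adjusted p = 0.397).

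Of 12 markers of hippocampal fields that are no members, 8 had a row, of which 1 was called higher and 7 were not called. The log2 fold changes of those 7 lay between -0.035 and 0.29 with a median of 0.055, and 6 were positive. Their summed level was 3023 to 3505 normalized counts in WT_CSPG and 3407 to 3910 in KO_CSPG, ranges that overlapped in part. The dentate gene Calb1 was among the 7 (log2 fold change -0.035, SE 0.32, adjusted p = 0.974), and C1ql2, also a dentate gene, had no row.

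The pan-pallial group had 3 members that rose and 3 that fell among 36. Of the 8 patterning and progenitor factors, Lhx2 alone was called. Lhx2 (chr2:38339281-38369733, plus strand) had 2223, 2236, 2349.9 and 2076 normalized counts in WT_CSPG A to D and 2019, 1919.9, 1974 and 1944 in KO_CSPG A to D. KO_CSPG libraries all lay below the lowest WT_CSPG library, D, and the geometric mean fell by 11.5% (log2 fold change -0.18, SE 0.036, adjusted p = 0.00649). Lhx2 lies 6.49 Mb from the deleted Fibcd1 on the same chromosome. Whether this location has a part in the Lhx2 result was not tested.

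Lhx9, the LIM factor most like Lhx2, had 280.03, 313, 313 and 334 normalized counts in WT_CSPG A to D and 313, 314, 305 and 347 in KO_CSPG A to D. The groups overlapped over most of their range (log2 fold change 0.045, SE 0.067, adjusted p = 0.814). Emx1 (-0.044), Pax6 (0.11), Otx1 (-0.091), Nr2f1 (0.015), Sox2 (0.062) and Sox9 (-0.037), the log2 fold changes of the other patterning and stem cell factors, were not called. Among 11 astrocyte and radial glia genes with a row, the progenitor filament gene Nes fell (log2 fold change -0.22, SE 0.039, adjusted p = 0.00192), and Slc1a3 (-0.019) and Fabp7 (0.13) were not called. The 10 genes of that list without a call leaned the other way, with a median of 0.10, 7 positive and 3 negative. Of all 11, 4 had an unadjusted p under 0.05 by limma. None of 10 proliferation genes was called by limma, with Mki67 at -0.072 (adjusted p = 0.605) and 0 of the 10 at an unadjusted p under 0.05.

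The 10 neuronal differentiation factors held 1 call in each direction. Bhlhe22 (chr3:18054174-18057517, plus strand), a bHLH repressor of area and projection identity, had 7061, 7123, 6804 and 7425 normalized counts in WT_CSPG A to D and 8037, 7828, 8009 and 8242 in KO_CSPG A to D. Every KO_CSPG library was higher, by 13.1% in the geometric mean (log2 fold change 0.18, SE 0.029, adjusted p = 0.000513). Neurod2 (chr11:98325415-98329648, minus strand), an activator of the same bHLH class, had 2425, 2658, 2396 and 2546 normalized counts in WT_CSPG and 2195, 2126, 2099.8 and 2233 in KO_CSPG. Here every KO_CSPG library was lower, and the geometric mean fell by 13.6% (log2 fold change -0.21, SE 0.036, adjusted p = 0.000799).

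Thus, of the bHLH members, Neurod2 and Neurod6 fell, Bhlhe22 rose, and Neurod1, Neurog2 and Tcf4 were not called. Tcf4 is a broadly used partner of these proteins and had 18453 to 20009 normalized counts in WT_CSPG and 18099 to 19223 in KO_CSPG (-0.051, adjusted p = 0.35). Tbr1 (0.076), Zbtb18 (-0.013), Bcl11a (-0.035), Myt1l (-0.067), Sox4 (-0.068) and Sox11 (-0.0086) had small log2 fold changes that were not called. Klf7, a Krüppel-like factor of axon growth, was at -0.12 (adjusted p = 0.122). Annotated exons on the opposite strand overlap 54.6% of the exon bases of Sox4 and 39.3% of those of Klf7, so their values are uncertain without stranded counting. Of 10 general neuronal genes, 0 were called by limma and 3 had an unadjusted p under 0.05, with Map2 at 0.012 and Tubb3 at -0.041.

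The layer and subtype factors held the strongest rise and the second strongest fall. Satb1 (chr17:51736187-51833290, minus strand), a chromatin organiser of cortical interneurons and of some pyramidal neurons, had 531, 519.8, 498 and 542 normalized counts in WT_CSPG A to D and 624, 704, 665 and 662 in KO_CSPG A to D. Each KO_CSPG library exceeded each WT_CSPG library and the geometric mean was 26.9% higher (log2 fold change 0.34, SE 0.050, adjusted p = 0.000142). Fezf2 (chr14:12341892-12345865, minus strand), the selector of subcerebral projection neurons, had 978, 811, 976 and 929 normalized counts in WT_CSPG and 665, 608, 749 and 737 in KO_CSPG. The groups did not overlap and the geometric mean fell by 25.3% (log2 fold change -0.42, SE 0.072, adjusted p = 0.00649). With the Y-linked covariate the estimate for Fezf2 changed sign, to 0.20 (adjusted p = 0.867 from limma).

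The 7 other layer factors with a row were not called. Cux1 (0.040) and Cux2 (-0.021), the upper-layer homeobox pair, and the LIM-only cofactors Lmo3 (0.087) and Lmo4 (-0.049) had log2 fold changes near 0. Rorb was at 0.24 (95% interval -0.0073 to 0.49), Etv1 at -0.12 and Sox5 at 0.086. Rorb had the lowest level per length of all members.

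Of the 3 MEF2 factors, Mef2c rose. Mef2c (chr13:83504034-83667080, plus strand), the activity-regulated MADS factor of excitatory neurons, had 1875, 1623, 1906 and 1879 normalized counts in WT_CSPG A to D and 2157, 2409, 2217 and 2047 in KO_CSPG A to D. The groups were apart, with WT_CSPG B the lowest library (log2 fold change 0.28, SE 0.056, adjusted p = 0.0187). This was the least secure of the calls, since leaving out KO_CSPG A raised its adjusted p to 0.053 and leaving out KO_CSPG C to 0.0807. Mef2a (-0.051) and Mef2d (-0.019) were not called. Mef2c is used in microglia as well, and the 6 microglial genes with a row summed to 1591 to 1782 in WT_CSPG and 1669 to 2015 in KO_CSPG, with 0 called by limma and 4 at an unadjusted p under 0.05. All 6 had positive log2 fold changes, with a median of 0.16. The part of microglia in the Mef2c result was not tested.

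The 3 NFI factors, which drive glial and late neuronal differentiation, all had negative log2 fold changes that missed the threshold. Nfib was at -0.092 (95% interval -0.15 to -0.036, adjusted p = 0.0695), with 11416 to 12226 normalized counts in WT_CSPG and 10791 to 11388 in KO_CSPG. Nfix was at -0.090 (adjusted p = 0.0706) and Nfia at -0.062 (adjusted p = 0.417). The POU factors Pou3f2 (0.11) and Pou3f3 (0.052) and the TALE factor Meis2 (-0.087) were not called.

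**Figure D3:**
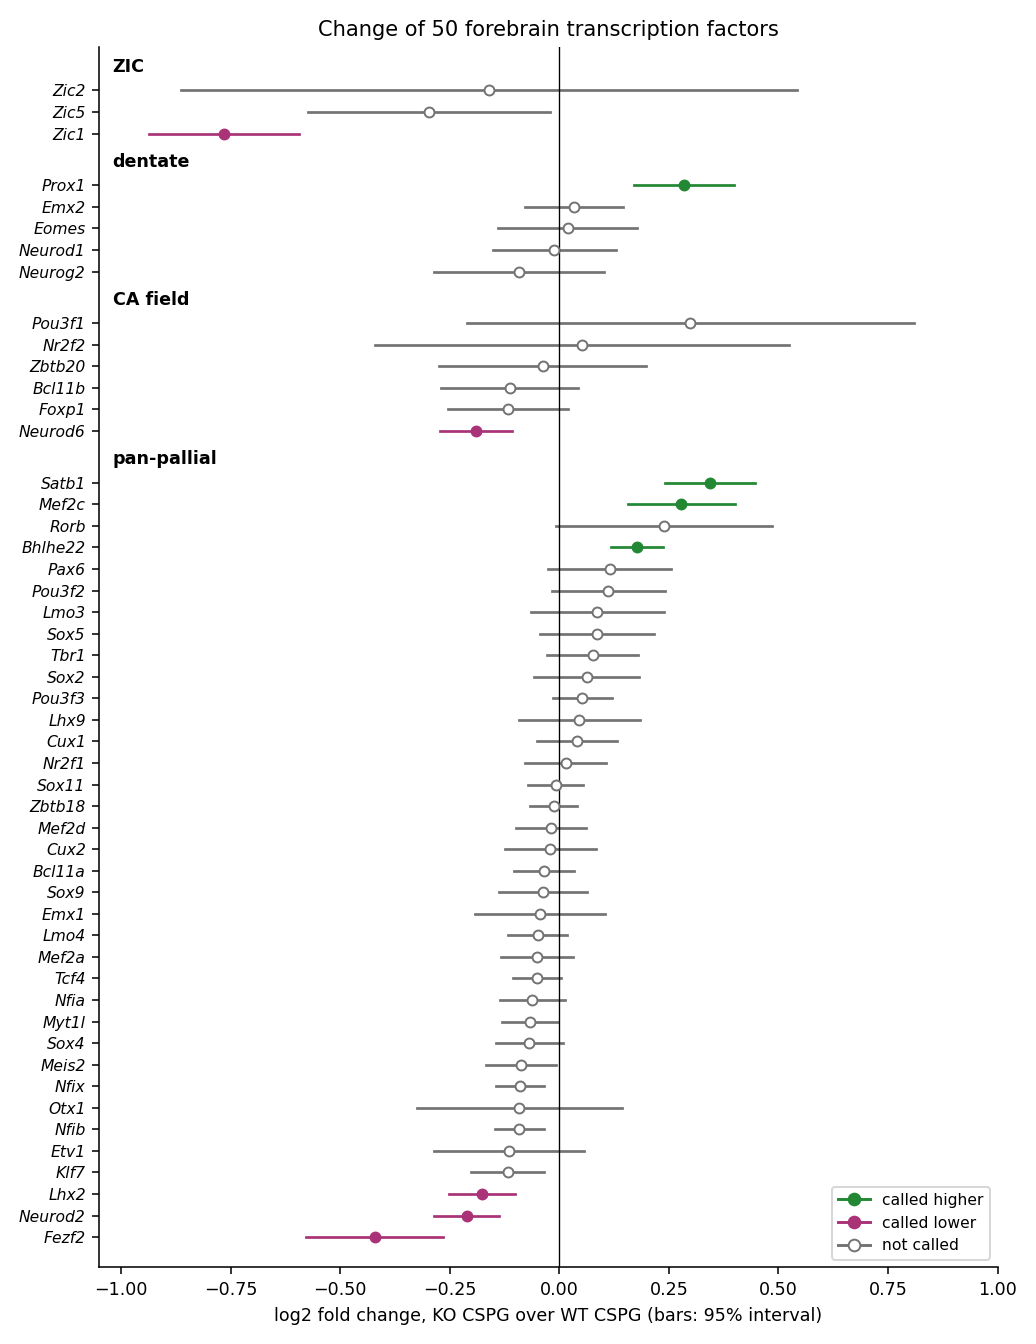
Difference between KO CSPG and WT CSPG as a log2 fold change (horizontal axis, positive where KO CSPG is higher) with its 95% interval for the 50 members with a row, by group. Filled points are the 9 called members, 4 to the right of 0 and 5 to the left, and most open points lie within 0.15 of 0.

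The members spanned a wide range of levels. Per 1000 bases of exon and averaged over the 8 libraries, Neurod6 (2756 normalized counts) and Nfix (2753) were highest and did not differ beyond their spread. Bhlhe22 (2263), Zbtb18 (1833), Neurod1 (1174) and Sox11 (995) came next, most of them factors of newborn glutamatergic neurons. Zic1 (39.0), Satb1 (31.2), Zic5 (17.2) and Rorb (8.23) were among the 9 lowest. The called members thus came from both ends of the order.

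**Figure D4:**
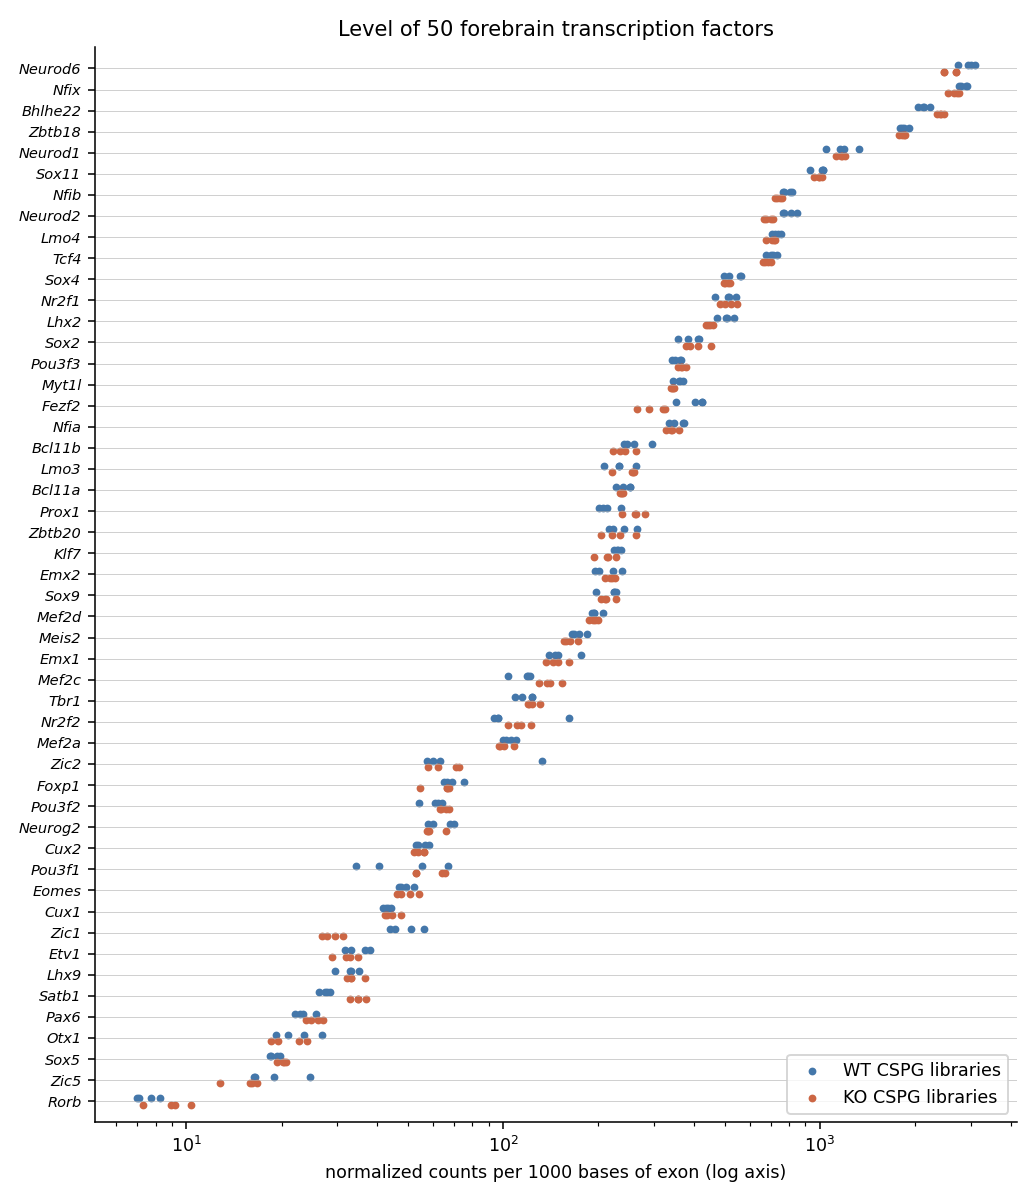
Level of the 50 members in normalized counts per 1000 bases of exon (horizontal log axis), 1 point for each library, ordered by the mean of all 8 libraries. Neurod6 and Nfix stand at the top and Rorb at the bottom, and the colours of the groups separate for few genes.

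Among 41 other forebrain transcription factors with a row, of 50 listed that are no members, 1 rose, 2 fell and 38 were not called. The 2 that fell were Nr4a2, a nuclear receptor induced by activity and used in subplate and claustrum (log2 fold change -0.48, SE 0.068, adjusted p = 0.00138), and Hivep2, a zinc-finger factor of neuronal genes (log2 fold change -0.26, SE 0.041, adjusted p = 0.000538).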

How the data were processed

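RNA of E18.5 hippocampal cultures was made into NEBNext Ultra libraries and read as 50-base single reads. The authors deposited a normalized signal per gene and library, the reads divided by a DESeq2 size factor, on mm10, as the submitters' processing notes name them. The aligner and counter are not given in the sources used here. The table also holds the authors' own fold changes and p-values, which were not used. Values were whole multiples of 1 step per library, which gave the depth of 10099564 to 11647202 reads. The step was inferred from the values and was not accepted as proof of read counts. The main fit was therefore limma 3.58.1 in R 4.3.3 (trend, robust) on log2(value + 1), a call being an adjusted p under 0.05 over 12012 genes. Such fold changes understate low genes. Differences in a list of tissue markers and in Y-linked genes are given beside the results. The replicate letters were not used as pairs in the main fit, since only B and C correlated best with their own letter. P-values measure the spread between preparations, which may be in part technical. Members and lists were chosen with earlier results of these data known. Named genes are all members, the called or defining genes of 13 lists, and Fibcd1, and some genes of the lists are not reported here; Ttr is the first gene of its list. Starts count from 1, and 47 of 50 spans matched GENCODE M21. The fit was tested on simulated data with a common spread and with larger changes than those of the called members apart from Zic1. Changes as small as theirs were not covered. Alternatives changed the pseudocount (0.1, 10), filter (mean of at least 100), scaling, prior variance, covariate, block and each replicate.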

Additional observations from a re-analysis of the deposited data

Results flagged for a closer look

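In 9 of 100 groups of 4 libraries (50 members in each genotype), 1 library lay far from the other 3, where chance gives about 5. In WT_CSPG D, Zic2 had 383 normalized counts, Nr2f2 1395 and Mef2d 1235, all above the other WT_CSPG libraries. Ttr was also highest in that library, and its part in these values was not tested. Among other WT_CSPG libraries, Sox11 had 7762 in C, Sox9 815 in A and Mef2c 1623 in B, each below the other 3. In KO_CSPG C, Lmo3 had 1137 and Foxp1 753 normalized counts, below the other 3, and in KO_CSPG D, Neurog2 had 147, above the other 3. Of these, Mef2c alone was a called member, and without WT_CSPG B it was still called.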

How the results depend on the processing

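Called members numbered 9 with a pseudocount of 0.1 or 10, a mean of at least 100, upper-quartile or TMM scaling, and limma-voom on the recovered reads, an alternative chosen after seeing the data; all 9 main calls were shared. Under upper-quartile scaling 50.6% of the 360 genes called were higher, against 37.9% in the main fit. The edgeR and DESeq2 alternatives were not run, since the recovered reads were inferred from the values and were not accepted as counts. Without a trend of the prior variance, 80 genes (28 higher, 52 lower) and 2 members (1 higher, 1 lower) were called, with 0 dentate, 0 CA field and 1 pan-pallial members. With the Y-linked covariate, 2 genes (1 higher, 1 lower) and 0 members in every group were called, and 12 members reversed: Nfix (0.010), Neurod1 (0.20), Lmo4 (0.014), Pou3f3 (-0.14), Fezf2 (0.20), Lmo3 (-0.12), Tbr1 (-0.24), Neurog2 (0.14), Cux2 (0.0059), Pou3f1 (-0.71), Cux1 (-0.088) and Lhx9 (-0.043). Genotype explained 91.2% of the variance of the Y-linked covariate, so the estimates beside it are poorly determined. Upper-quartile scaling put Neurod1 at 0.000919 and Sox11 at 0.0037.

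Leaving out each library in turn gave 186 to 576 genes called (62 to 286 higher, 124 to 290 lower), 8 to 11 members and 1 to 2 CA field members. The table-wide count moved by over 1.5 times without WT_CSPG A (226), WT_CSPG C (202), WT_CSPG D (576), KO_CSPG A (186) and KO_CSPG C (204). Mef2c was lost without KO_CSPG A or C, Klf7 was gained without KO_CSPG D, and Nfib and Nr2f2 were gained without WT_CSPG D. Members without a call changed sign in some of these fits, with log2 fold changes of -0.026 to 0.0048 for Zbtb18, -0.069 to 0.048 for Neurod1, -0.040 to 0.0083 for Sox11, -0.028 to 0.047 for Nr2f1, -0.10 to 0.018 for Zbtb20, -0.0088 to 0.083 for Emx2, -0.034 to 0.0058 for Mef2d, -0.089 to 0.024 for Emx1, -0.020 to 0.24 for Nr2f2, -0.28 to 0.12 for Zic2, -0.040 to 0.0032 for Cux2, -0.022 to 0.053 for Eomes and -0.0029 to 0.082 for Lhx9. The causes were not tested.

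Libraries with the same letter deviated together with correlations of -0.07 for A, 0.10 for B, 0.27 for C and -0.0051 for D. B and C correlated best with their own letter and A and D did not, so whether the letters pair the libraries was not settled. With a replicate block 429 genes and 9 members were called, 8 of them shared with the main fit, Nfib (adjusted p = 0.0469) in place of Mef2c (adjusted p = 0.135). With 4 libraries a group and a floor of 40.7 normalized counts, members below the floor were not measured.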
